A study of Mus musculus with 6 samples.

Results

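The 6 genes Ifit1, Ifit3b, Usp18, Irf7, Ifitm3 and Ifi208, all known to be induced by type I interferon, were followed in macrophages with 1 altered copy of Senp8 and in wild-type macrophages. They are 6 of the 714 genes in the table used here. They were chosen by name from the genes that the authors had selected on the comparison of these same libraries, so every difference between the genotypes below is a description and carries no test. 4 of the 6, Ifit1, Ifit3b, Usp18 and Ifi208, lay higher in the Senp8+/- libraries, and 2, Irf7 and Ifitm3, lay lower. Both lower members depended on scaling: when the libraries were rescaled to equal medians the log2 fold change became 0.0038 for Irf7 and -0.14 for Ifitm3.

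Messenger RNA was sequenced in 6 libraries of bone marrow-derived macrophages, which are cells grown from flushed mouse marrow, here with the myeloid growth factor GM-CSF at 10 ng/ml for 6 days. There were 3 libraries of Senp8+/- cells, titled KO although 1 allele remains, and 3 of wild-type cells, both of the C57BL/6 strain, and both were given beads carrying CD47 and harvested 24 h later. Senp8 encodes a protease that takes the ubiquitin-like protein NEDD8 off its targets, and CD47 is the surface protein that restrains engulfment through SIRPα. The labels give neither the kind of Senp8 alteration nor the age of the mice, and they do not say whether the 3 libraries of a genotype came from different animals. No library without beads was analysed here. Senp8 itself was not among the listed genes, so its level could not check the genotype labels. Values are normalised read counts, that is, reads of a gene divided by 1 size factor per library, and errors are SD over 3 libraries per genotype unless another is named. Size factors lay between 0.933 and 1.14, and reads summed over the listed genes lay between 205957 and 217286 in Senp8+/- and between 439026 and 491156 in wild type. These sums cover listed genes only and are not library depths.

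Type I interferons bind a receptor shared by nearly all cells, and the signal it passes to the nucleus acts on the interferon-stimulated response element in the promoters of target genes. Macrophages keep a low tonic level of this response, and infection or nucleic acid sensing raises it. Irf7, itself a target, is a transcription factor that amplifies interferon production, while Usp18 removes the ubiquitin-like protein ISG15 from proteins and also blocks signalling at the receptor. Ifit1 and Ifit3b belong to the IFIT family, whose founding members bind foreign RNA or other IFIT proteins. Ifitm3 encodes a membrane protein that hinders entry of viruses, and Ifi208 belongs to the IFI200 family, known for DNA sensors such as Aim2.

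Promoter windows are shown first because the response element is the sequence through which type I interferon is known to act. RefSeq windows of 300 bases around the start site on GRCm38.p6 were given for 5 of the 6 members, and Usp18 had no entry. Capitals mark matches of GAAANNGAA, the core of the response element, or of its reverse complement, since both strands were searched. Each window is printed 5′ to 3′ on the strand of its gene.
Ifit1, chr19:34640639-34640938, plus strand: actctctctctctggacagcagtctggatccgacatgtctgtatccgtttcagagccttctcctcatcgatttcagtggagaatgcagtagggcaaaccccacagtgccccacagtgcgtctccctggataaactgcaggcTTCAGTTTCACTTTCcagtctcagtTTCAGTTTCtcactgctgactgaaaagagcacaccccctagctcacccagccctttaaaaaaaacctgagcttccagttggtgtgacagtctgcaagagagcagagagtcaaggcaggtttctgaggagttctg
Ifit3b, chr19:34607707-34608006, plus strand: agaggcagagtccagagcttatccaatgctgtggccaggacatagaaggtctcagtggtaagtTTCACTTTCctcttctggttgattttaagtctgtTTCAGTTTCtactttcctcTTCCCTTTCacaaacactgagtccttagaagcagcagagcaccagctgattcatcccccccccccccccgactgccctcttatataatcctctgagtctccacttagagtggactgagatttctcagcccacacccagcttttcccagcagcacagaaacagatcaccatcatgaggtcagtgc
Ifi208, chr1:173673415-173673714, plus strand: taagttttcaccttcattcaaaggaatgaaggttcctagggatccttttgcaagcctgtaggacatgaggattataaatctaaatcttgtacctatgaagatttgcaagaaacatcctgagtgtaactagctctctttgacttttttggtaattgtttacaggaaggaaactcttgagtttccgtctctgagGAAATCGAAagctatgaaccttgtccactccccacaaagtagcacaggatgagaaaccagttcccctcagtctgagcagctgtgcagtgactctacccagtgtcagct
Ifitm3, chr7:141010695-141010994, minus strand: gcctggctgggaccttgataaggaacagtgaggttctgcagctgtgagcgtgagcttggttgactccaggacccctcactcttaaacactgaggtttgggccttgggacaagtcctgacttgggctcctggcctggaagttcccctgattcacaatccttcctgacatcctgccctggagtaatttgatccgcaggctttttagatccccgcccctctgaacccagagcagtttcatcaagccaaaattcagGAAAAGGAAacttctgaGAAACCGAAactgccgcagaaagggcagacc
Irf7, chr7:141266375-141266674, minus strand: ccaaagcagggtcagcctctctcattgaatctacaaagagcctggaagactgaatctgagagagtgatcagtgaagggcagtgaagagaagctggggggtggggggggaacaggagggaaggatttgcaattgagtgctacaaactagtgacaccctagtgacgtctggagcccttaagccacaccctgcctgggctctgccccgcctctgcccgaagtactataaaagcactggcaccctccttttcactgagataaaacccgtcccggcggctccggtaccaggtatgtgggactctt

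The core was found in 4 of the 5 windows, against 8.56% of 32851 promoter windows of the same length in the reference. Ifit1 and Ifit3b, both higher in Senp8+/-, held 3 matches each. The first and second of Ifit1 overlap and form the long capital run. Ifi208, also higher, held 1 match, and Ifitm3, which was lower, held 2, both just downstream of its start site. Irf7 held 0, which says only that these letters are not in this window. A match thus stood in windows of members that differed in either direction. The gamma-activated site core TTCNNNGAA was found in 1 of the 5 windows, that of Ifitm3, where it overlaps the second response element core, against 8.3% of all windows. In the wider type I interferon list described later, without the members, 48 of 113 windows held the response element core (42.5%). In the list of interferon-gamma GTPases and Irf1, also described later, 10 of 14 windows held it (71.4%). Among all listed genes it was held by 8 of 111 windows of genes higher in Senp8+/- (7.21%) and by 70 of 510 windows of genes lower (13.7%). These shares are descriptions, and a match is not evidence of binding.

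The authors' deposited table gave all 6 members an adjusted p under 0.05, the meaning of "called" here. Of the 14694 genes in the authors' correction 2.01% were both listed and called, 0.361% higher and 1.65% lower in Senp8+/-. Genes with an absolute log2 fold change under 1 in that contrast were not listed, so the share called at any fold change is unknown and may be larger. Since the members were taken from that contrast, nothing is read from their count. Libraries of the genotypes did not overlap for any member, which was also true of 89.4% of all listed genes.

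Ifit1 (ENSMUSG00000034459, chromosome 19, 34640871 to 34650009 on GRCm38, plus strand) stood at 933, 1271 and 1185 in the Senp8+/- libraries and at 615, 641 and 414 in the wild-type libraries. The lowest Senp8+/- library lay 1.46-fold above the highest wild-type library. The means were 1129 ± 176 in Senp8+/- and 557 ± 124 in wild type, a 2.03-fold difference. On the scale of log2(normalised count + 1) limma gave 1.03 ± 0.28 (SE, 3 libraries each). In the authors' deposited table its log2 fold change was 1.02, just inside their selection, which kept absolute values from 1 upward. Values of genes just outside it were not analysed here.

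Ifit3b (ENSMUSG00000062488), 27.5 kb before Ifit1 on the same strand, is a near copy of Ifit3. It stood at 88.5, 183 and 140 in Senp8+/- and at 47.5, 51.7 and 34.1 in wild type. Replicate 1 was well below the other Senp8+/- libraries but still above all wild-type libraries. The 3.09-fold difference, 137 ± 47.4 in Senp8+/- and 44.4 ± 9.22 in wild type, was wider than that of Ifit1 in ratio and rested on lower counts. limma gave a log2 fold change of 1.57 ± 0.37 (SE). Its level is uncertain, because 27.4% of the 100-base windows of its annotated transcript also stand in Ifit3 transcripts, and 44.5% of 50-base windows do. The 300-base promoter windows of Ifit3b and Ifit3 share an identical run of 169 bases. Ifit3 was not among the listed genes.

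Usp18 (ENSMUSG00000030107, chromosome 6, 121245906 to 121270917, plus strand) stood at 623, 848 and 857 in Senp8+/- and at 418, 399 and 271 in wild type. Its genotype means were 776 ± 133 in Senp8+/- and 363 ± 80.0 in wild type, a 2.14-fold difference with a limma log2 fold change of 1.11 ± 0.29 (SE). The noncoding gene Gm44148 overlaps it over 15715 bases on the opposite strand, mostly outside exons, since 2.81% of the 50-base windows of Usp18 transcripts also stand in those of Gm44148. The labels do not state the strand setting of the counting, so reads of that stretch could belong to either gene.

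**Figure D1:**
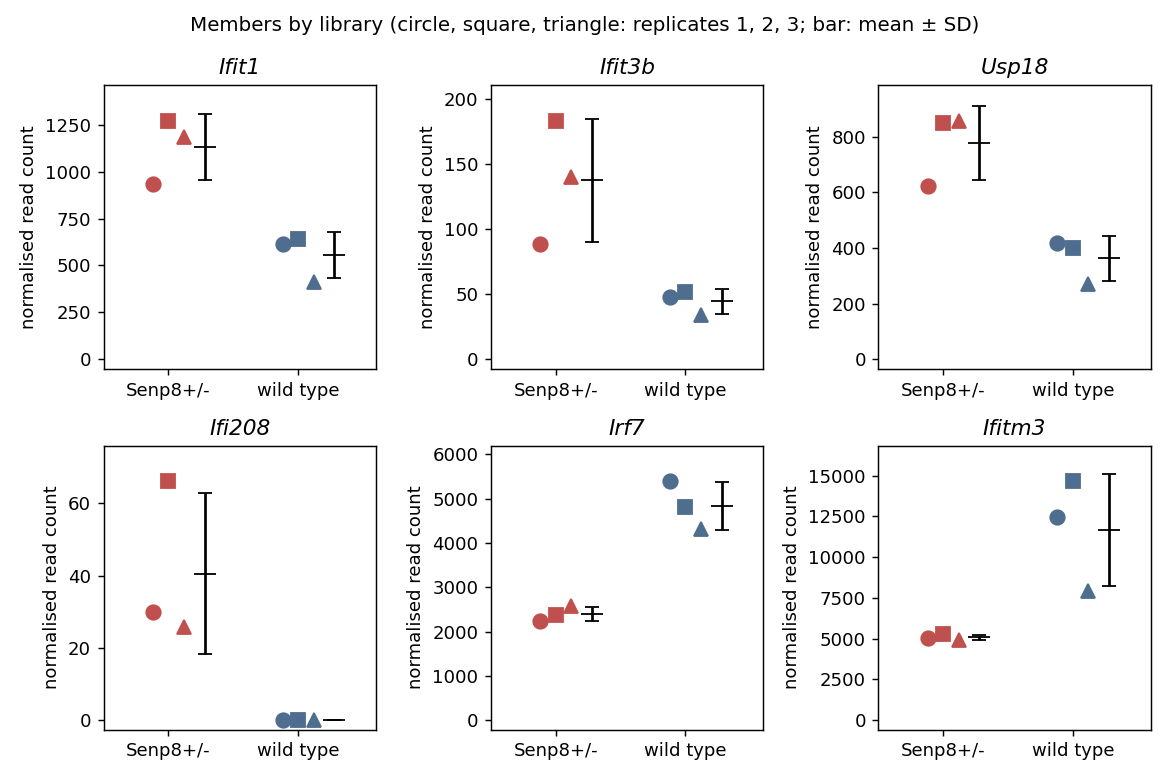
Normalised read counts (linear axes from 0) of the 6 members in each library, Senp8+/- left of wild type, with the mean and SD beside the points. Ifit1, Ifit3b, Usp18 and Ifi208 are higher in Senp8+/- and Irf7 and Ifitm3 lower, and the lowest wild-type point of the 5 members detected there is replicate 3.

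Irf7 (ENSMUSG00000025498, chromosome 7, 141262706 to 141266481, minus strand) stood at 2239, 2379 and 2566 in Senp8+/- and at 5389, 4813 and 4312 in wild type. Both groups were tight, with coefficients of variation of 6.85% in Senp8+/- and 11.1% in wild type. The means of 2394 ± 164 in Senp8+/- and 4838 ± 539 in wild type differed 2.02-fold, with a limma log2 fold change of -1.01 ± 0.23 (SE), which became 0.0038 when the libraries were rescaled to equal medians over the listed genes. In the authors' deposited table its log2 fold change was -1.01, the member nearest to the edge of their selection. Irf7 shares 45 bases with the opposite-strand gene Phrf1.

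Ifitm3 (ENSMUSG00000025492, chromosome 7, 141009586 to 141010770, minus strand) was the most abundant member. It stood at 5053, 5261 and 4927 in Senp8+/- and at 12461, 14635 and 7889 in wild type. The Senp8+/- libraries agreed within a coefficient of variation of 3.32%, against 29.5% in wild type, where replicate 3 was low. The means were 5080 ± 169 in Senp8+/- and 11662 ± 3443 in wild type, 2.30-fold lower in Senp8+/-, with a limma log2 fold change of -1.15 ± 0.26 (SE), which shrank to -0.14 under the rescaling. Its family member Ifitm2, 53.6 kb away, stood at 1139, 1166 and 1214 in Senp8+/- and at 2116, 3898 and 1230 in wild type. Ifitm2 was not called, and the highest Senp8+/- and the lowest wild-type library nearly touch.

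That rescaling needs a word wherever a direction is given. Of the 714 listed genes 569 lay lower in Senp8+/-, so forcing equal medians lifts every log2 fold change, by a median of 0.96. The listed genes were selected on the contrast and give no independent scaling, and the deposited scaling was kept. Ratios of members inside a library do not depend on any scaling, and they were computed after the values had been seen.

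The ratio of Ifit1 to Irf7 was 0.417, 0.534 and 0.462 in Senp8+/- and 0.114, 0.133 and 0.0961 in wild type, so the balance between both genes differed 4.11-fold whatever the scaling. Usp18 over Irf7 gave 0.278, 0.357 and 0.334 in Senp8+/- and 0.0776, 0.0829 and 0.0628 in wild type. Ratios of a higher to a lower member had to differ about as much as the product of both selected fold changes, and those of members with the same direction had to differ less, so they restate the selected values free of scaling. Usp18 over Ifit1 was 0.668, 0.668 and 0.723 in Senp8+/- and 0.679, 0.623 and 0.654 in wild type, with overlapping groups. Ifitm3 over Irf7 was 2.26, 2.21 and 1.92 in Senp8+/- and 2.31, 3.04 and 1.83 in wild type, again overlapping. Ifit3b over Ifit1 was 0.0949, 0.144 and 0.118 in Senp8+/- and 0.0773, 0.0807 and 0.0823 in wild type, without overlap, and carries the uncertainty of the Ifit3b counts.

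**Figure D2:**
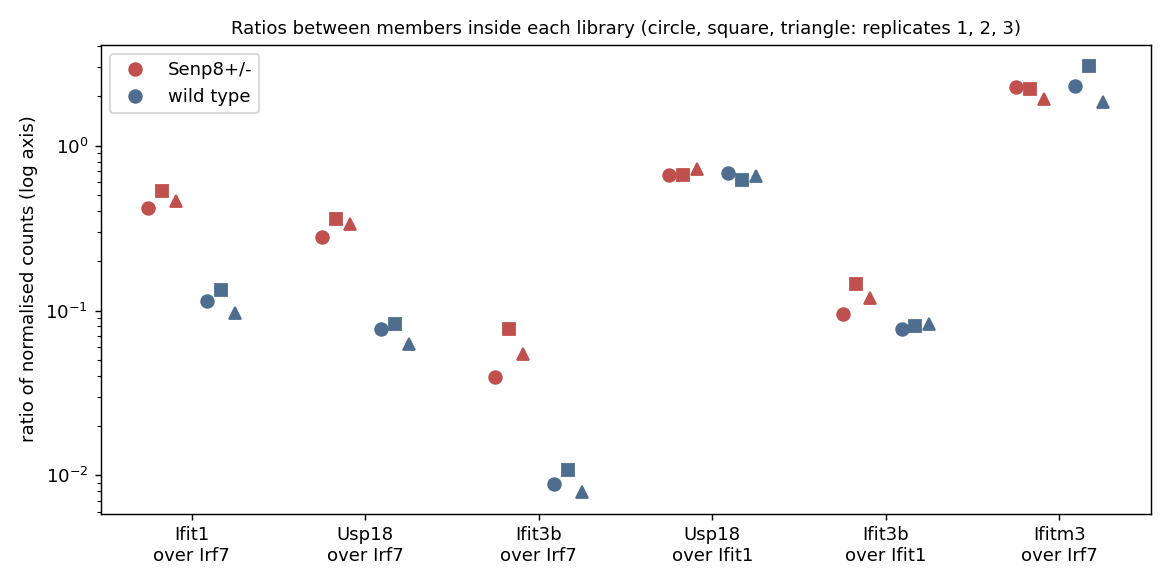
Ratios of normalised counts of 2 members inside each library (log axis), Senp8+/- left of wild type. Ratios of Ifit1, Usp18 and Ifit3b to Irf7 separate the genotypes, with Ifit1 over Irf7 at 0.417 to 0.534 in Senp8+/- and 0.0961 to 0.133 in wild type, while Usp18 over Ifit1 and Ifitm3 over Irf7 overlap.

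Ifi208 (ENSMUSG00000066677, chromosome 1, 173673675 to 173698395, plus strand) had no reads in wild type. It had 29, 71 and 24 reads in Senp8+/-, which are 29.9, 66.1 and 25.7 after normalisation, and 0 reads in each wild-type library. With the wild-type level set at 3 reads in each library, which is 2.92 normalised counts on average, the Senp8+/- mean was 13.9-fold higher. The 3 reads are a chosen floor that allows for counting error in wild type only, and the spread of the Senp8+/- libraries does not enter. Ifi208 was the scarcest member, with a mean of 40.5 ± 22.2 in Senp8+/-, and replicate 2 carried most of its reads. Of the listed genes, 16 were at 0 in every wild-type library, and Ifi208 had the highest Senp8+/- mean among them.

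Ifi208 lies in the IFI200 cluster, which from Aim2 to Ifi205 holds 21 annotated genes, 13 of them protein-coding. The table listed 2 of the 21. The other was Gm18445, an unprocessed pseudogene named here after its values were seen. It was also at 0 in all wild-type libraries and stood at 4.12, 13.0 and 28.9 in the Senp8+/- libraries. The highest Senp8+/- library was replicate 2 for Ifi208 and replicate 3 for Gm18445. Of the 100-base windows of Ifi208 transcripts, 5.92% also stand in transcripts of another gene, mostly of Ifi213, and 20.9% of 50-base windows do. Near-identical relatives in the cluster make its counts uncertain to that extent.

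Levels of different genes are comparable only per length. Per kilobase of the gene length in the deposited table, Ifitm3 led, its normalised count being 7493 in Senp8+/- and 17200.2 in wild type. Irf7 followed with 634 in Senp8+/- and 1281 in wild type, then Ifit1 with 425 in Senp8+/- and 210 in wild type. Usp18 came next with 278 in Senp8+/- and 130 in wild type, then Ifit3b with 68.7 in Senp8+/- and 22.2 in wild type. Ifi208 was last with 7.71 in Senp8+/- and 0 in wild type. The order was the same in both genotypes.

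The spread inside each genotype entered the authors' p, and hence the selection of the genes, so it too is a description. In wild type, replicate 3 was the lowest library for all 5 members with reads there, both those that were higher and those that were lower in Senp8+/-. Across listed genes replicate 3 was the lowest wild-type library for 44.4%, and it also had the lowest summed normalised count over them. Yet replicate 3 was the highest wild-type library for 36.0% of them and had the highest wild-type median over them, 35.8. Its deviation from the wild-type mean on the log2 scale was -0.40 for Ifit1, -0.35 for Ifit3b, -0.39 for Usp18, -0.16 for Irf7 and -0.52 for Ifitm3. In Senp8+/-, replicate 1 was the lowest library for Ifit1, Ifit3b, Usp18 and Irf7, against 33.1% of listed genes, and replicate 3 was lowest for Ifitm3 and Ifi208. The deviations of replicate 1 were -0.26 for Ifit1, -0.57 for Ifit3b, -0.30 for Usp18 and -0.09 for Irf7. Irf7 and Ifitm3 moved little in Senp8+/-. Ifi208 ran in the same replicate order as Ifitm3, which differed from that of the other members, so the 6 members did not share 1 pattern there. Each pattern rests on 3 libraries, and no test was made of it.

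**Figure D3:**
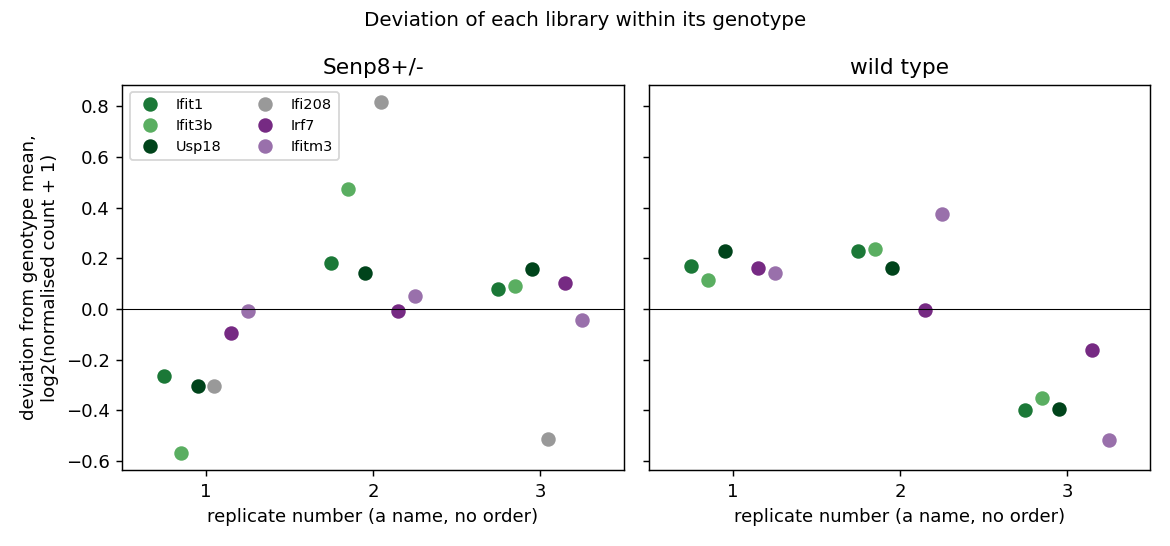
Deviation of each library from its genotype mean, log2(normalised count + 1), for the members (Ifi208, at 0 in wild type, only in Senp8+/-). In wild type all 5 members are lowest in replicate 3, by 0.16 to 0.52 below the mean, and in Senp8+/- replicate 1 is lowest for Ifit1, Ifit3b, Usp18 and Irf7.

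The rest of the pathway was read from a list of 118 genes covering ligands, receptors, signal transducers and stimulated genes of the type I system. Of these, 12 were listed, the 6 members included, and the other 106 were not. A gene that is not listed either missed the authors' selection or never entered it. None of the 10 ligands and receptors, such as Ifnb1 and Ifnar1, was listed, and among 15 signal transducers and modifiers Irf7 and Usp18 were the 2 listed. None of the 8 OAS genes, which encode sensors of double-stranded RNA, was listed, and 2 of 6 IFIT, 2 of 7 IFITM and 1 of 13 IFI200 genes were. Among these 12, Senp8+/- was the higher genotype for 5 and the lower for 7. Of the 12, 10 were called, 4 higher and 6 lower, against 41.3% called among all listed genes. The 6 members, taken from the listed genes and all called, are among the 10, so nothing is read from this count. Of the others Ccl5, Ly6e, Lgals3bp and Gbp6 were called, and Mx2 and Ifitm2 were not. Their median log2 fold change was -0.95, against -1.39 over all listed genes. Under the rescaling Irf7 and Ifitm2 turned sign and the list's median became 0.067.

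Beyond the members, the 6 others were Mx2, Ccl5, Ly6e, Lgals3bp, Gbp6 and Ifitm2. Mx2, a dynamin-like antiviral GTPase, stood at 82.3, 83.7 and 58.9 in Senp8+/- and at 23.8, 33.8 and 48.9 in wild type. It thus lay on the side of Ifit1 but was not called. Ly6e, a membrane protein that hinders coronavirus fusion, stood at 5369, 5566 and 5601 in Senp8+/- and at 17192, 18015 and 14055 in wild type. Lgals3bp, a secreted glycoprotein, stood at 8086, 7363 and 7567 in Senp8+/- and at 18159, 18611 and 15724 in wild type. Both kept to the side of Irf7 and Ifitm3, with log2 fold changes of -1.57 ± 0.21 for Ly6e and -1.19 ± 0.21 for Lgals3bp (SE). The chemokine gene Ccl5 was 4.55-fold and the guanylate-binding protein gene Gbp6 3.28-fold lower in Senp8+/-. Gbp6 was placed in the type I list, whereas the other listed Gbp genes stand in the interferon-gamma list below, so the lists divide 1 gene family.

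The genes nearest in kind are the GTPases induced mainly by interferon-gamma, with their regulator Irf1. Of 20 such genes 12 were listed, all lower in Senp8+/- at the deposited scaling and after the rescaling, and 11 were called. Over all 714 listed genes 569 lay lower at the deposited scaling and 540 after the rescaling, and 41.3% were called. The median log2 fold change of the 12 was -1.81, against -1.39 over all listed genes. Irf1 stood at 2131, 1178 and 1657 in Senp8+/- and at 4529, 4020 and 3696 in wild type. Gbp2 was 3.58-fold and Iigp1 5.24-fold lower. The log2 fold changes of Gbp2b, Gbp3, Gbp4, Gbp5, Gbp8, Tgtp1, Tgtp2 and Gm4951 ranged from -3.57 for Gbp4 to -1.11 for Gm4951. In this group Gbp9, at 168 ± 41.8 in Senp8+/- and 367 ± 141 in wild type, was not called. Whether the members and these GTPases differ as groups was not tested.

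**Figure D4:**
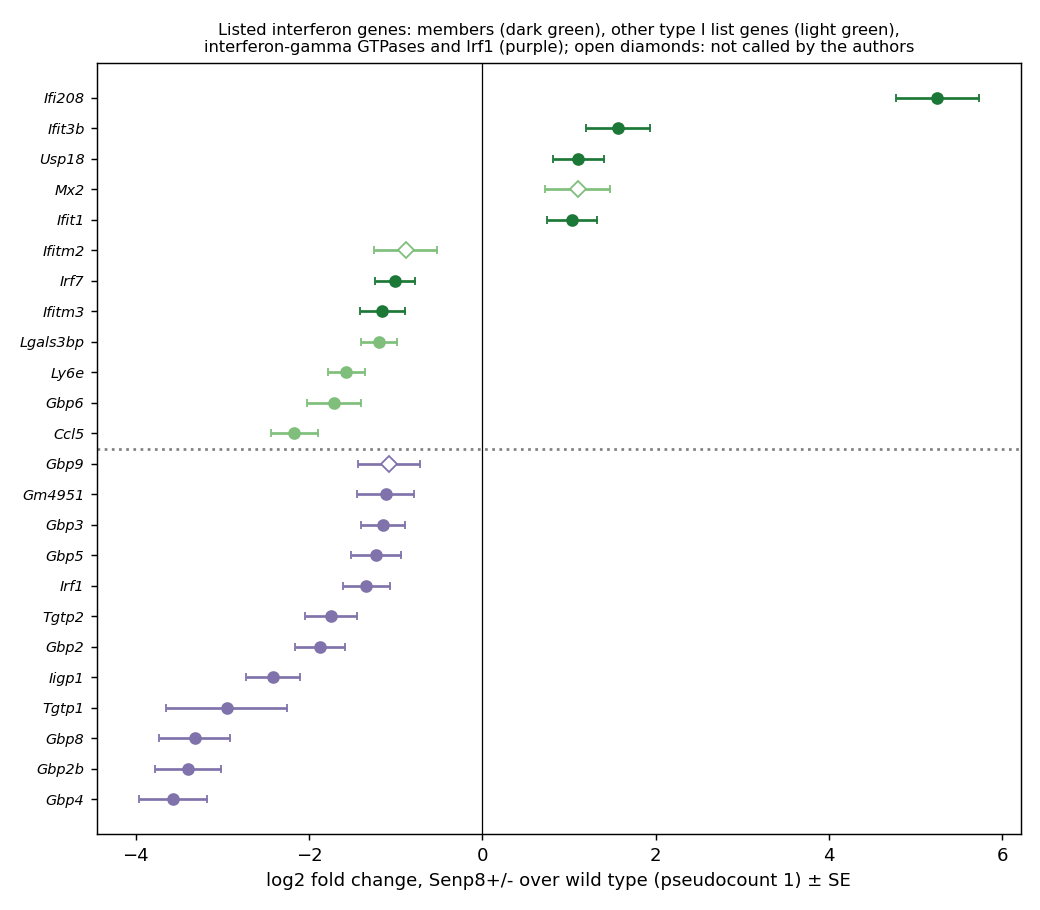
Senp8+/- over wild-type log2 fold change (pseudocount 1) and its SE for the 12 listed genes of the type I list (above the dotted line) and the 12 listed interferon-gamma GTPases and Irf1. The value of Ifi208, at 0 in wild type, depends on the pseudocount. The type I list spans both sides of 0, with Irf7 and Ifitm2 changing side under the rescaling, and the GTPases and Irf1 all lie below 0.

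Of 262 listed genes with a mean of at least 50 and a name other than that of a predicted gene, the 2 closest in profile to each member were found by the root mean square difference of centred log2 values over the 6 libraries. Ifit1 and Usp18 were each other's nearest, at 0.064. The next for both was podoplanin (Pdpn), a mucin-like surface protein, at 0.11 from Ifit1 and 0.14 from Usp18. Ifit3b was nearest to caveolin-1 (Cav1) at 0.21 and the chemokine gene Cxcl14 at 0.23. Irf7 was nearest to the CDK inhibitor gene Cdkn1a at 0.12 and to Lgals3bp at 0.14. Ifitm3 was nearest to Phlda3 at 0.11 and to H2-M3, a non-classical MHC class I gene, at 0.12. The nearest to Ifi208 were Lrmda at 0.94 and Serpinb2 at 1.21 among these candidates, whose minimum level leaves out scarce genes that are also at 0 in wild type, such as Gm18445. The genotype difference dominates these distances, since all listed genes carry one.

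Listed markers of other cells a marrow culture can hold lay lower in Senp8+/-, as did 569 of the 714 listed genes. In bulk RNA fewer cells of a type and less RNA per cell cannot be told apart. Of 10 T and NK cell markers 6 were listed, all lower, with summed levels of 7.44 to 15.0 in Senp8+/- and 94.4 to 186 in wild type, and Gzma and Ncr1 were at 0 in Senp8+/-. Of 6 monocyte markers 4 were listed, all lower, summing to 337 to 513 in Senp8+/- and 953 to 2107 in wild type. Of 10 neutrophil markers 3 were listed, all lower, summing to 358 to 561 in Senp8+/- and 1187 to 1566 in wild type, with Retnlg at 0 in Senp8+/-. Of 9 stromal markers 8 were listed, all lower at the deposited scaling, though Pdgfra turned sign under the rescaling. They summed to 391 to 720 in Senp8+/- and 690 to 1770 in wild type, which overlap. Of these 8, 2 were called and 3 did not overlap between the genotypes, against 41.3% and 89.4% of all listed genes. Of 8 conventional dendritic cell markers Clec9a was listed, at 9.30 to 16.5 in Senp8+/- and 75.3 to 96.1 in wild type. Among the wild-type libraries replicate 3, the lowest for the members, was also lowest in the summed T and NK cell and monocyte levels. It was highest in Clec9a and in the neutrophil sum, which is mostly Csf3r, at 1553 in that library. The other listed neutrophil markers went the other way and were lowest in it, Retnlg at 6.12 and Prtn3 at 6.99. The stromal sum was lowest in replicate 2. None of the 8 macrophage and none of the 8 plasmacytoid dendritic cell markers was listed, so the labelled cell type could not be checked against its markers. The part of these cells in the members' values was not tested.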

How the data were processed

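RNA was sequenced in 6 libraries, grouped by their titles and genotype labels. The submitters' processing notes name HISAT2 2.0.5 as well as featureCounts 1.5.0-p3. Build, annotation, strand setting and the tool of the authors' test were not given in the sources used here. The deposited signal per library is reads divided by a size factor. In each library 100% of values were whole multiples of 1 step within 1e-06 of a read, so reads were recovered. The deposited table holds the authors' log2 fold change, p-value and adjusted p-value. Its largest p was 0.0499 and no absolute log2 fold change was under 1, so genes were selected on both. The authors' correction covered 14694 genes, from the ratio of the smallest p to its adjusted value. Member positions equal those of GENCODE M21 (GRCm38).

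In R 4.3.3, limma 3.58.1 with trended empirical Bayes variances was applied to log2(value + 1) over all 714 listed genes, with genotype as the term. This scale shrinks the fold changes of scarce genes. For the counts in the closing section, Benjamini-Hochberg adjustment ran over 14694 genes. edgeR 4.0.16 and DESeq2 1.42.0 on recovered reads were alternatives. The limma and edgeR fits were also run on simulated counts, whose outcome is not given here, so nothing is read from it. The spread between libraries, on which p-values rest, may be technical only. The named genes are the members, listed genes of the lists and the closest profiles by the stated distance. The members and lists were chosen with earlier results of these data known. Columns of samples outside the series numbered 0.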

Additional observations from a re-analysis of the deposited data

How the results depend on the processing

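At the main setting limma called 176 listed genes (adjusted p under 0.05). The listed genes were selected on this same contrast, and the variances were estimated over them alone. The counts in this section thus show only dependence on the processing and are not numbers of differing genes. The count was 174 with the replicate number as a replicate block, 180 by edgeR and 235 by DESeq2 on recovered reads, and 701 with the correction carried over the listed genes alone. Leaving out a library gave 11 to 181, with 11 without wild-type replicate 1, 37, 87 and 100 without Senp8+/- replicates 2, 3 and 1, and 112 without wild-type replicate 2. Fewer samples enter these fits. Same-numbered libraries did not deviate together over the listed genes (r 0.0101, 0.0441 and -0.243). The labels do not say whether they were prepared together, and these values over selected genes cannot decide it. The block changed no member's direction.

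Equal medians over the listed genes, which by construction lifts all genes, gave log2 fold changes of 2.05 for Ifit1, 2.57 for Ifit3b, 2.12 for Usp18, 0.0038 for Irf7, -0.14 for Ifitm3 and 5.83 for Ifi208. It left 1 member lower, and the median of the type I list became 0.067. Ifi208, with 0 reads in wild type, had a log2 fold change of 5.25 at pseudocount 1, 6.23 at 0.5, 3.08 at 5, 8.37 by edgeR and 7.83 by DESeq2, none of which is a bound. Under the other alternatives, each library left out included, all members kept their direction. Library depth is unknown, and Ifi208 has 24 to 71 reads in Senp8+/-.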
